A study of Homo sapiens with 12 samples.

Results

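STAU1 and STAU2 encode the 2 human Staufen proteins, which were followed here by gene symbol through 5 deposited tables of polyadenylation and splicing changes. The pair was chosen by changes already seen for STAU2 in these same tables (its usage index, cryptic site usage and intron shares), so those values are given as a description and support nothing. Among the 4720 named genes in the tables, STAU2 was listed and STAU1 was not. The libraries came from neurons of a cortical kind, obtained by driving NGN2, a proneural transcription factor, in the established human embryonic stem cell line WA01. Neurons received a hairpin RNA against TDP-43 or a scrambled hairpin for 7 days. Each treatment had 3 RNA-seq libraries and 3 libraries of 3' end-seq, which reads the ends of polyadenylated transcripts, giving 12 in all. All neurons share the WA01 background and the NGN2 differentiation. The labels do not say whether replicates were separate cultures, so any spread between libraries may be technical only. Whether the deposited p-values rest on that spread or on pooled read counts is not known.

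Staufen proteins bind double-stranded stretches of RNA through conserved double-stranded RNA-binding domains. In neurons they are found in RNA granules that travel along microtubules into dendrites, and STAU2 is the more brain-enriched of the pair. Both also recruit the helicase UPF1 to bound transcripts, which leads to Staufen-mediated mRNA decay. TDP-43 is a nuclear RNA-binding protein that represses the use of splice sites and polyadenylation sites near its binding sequences, and its nuclear loss is a hallmark of affected neurons in amyotrophic lateral sclerosis and frontotemporal dementia. A polyadenylation site inside an intron ends the transcript before its last exons.

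The tables give 1 value per comparison or per group and none per library, so no spread between libraries can be shown for either gene. They list changed items only, and the number of items tested, the depth behind each value and the settings behind the p-values are not known here. Gene expression, including the levels of STAU1, STAU2 and TARDBP, was not analysed here, so neither the strength of the knockdown nor a change in the amount of either Staufen transcript is given. Where a splicing change is positive it is read as higher in the knockdown, because the intron of STMN2 that ends at its unannotated splice site changed by 44.9 percentage points in the authors' deposited table, and this STMN2 junction is known to appear when TDP-43 is lost.

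STAU1, on chromosome 20 from 49113339 to 49219295 in the RefSeq annotation of GRCh38.p14, had 0 entries in each of the 5 tables. A search by older symbols found 0 entries as well, and a search by position inside the gene found 0 in the 4 tables that hold coordinates. Because only changed items are listed, this does not show that STAU1 was unaffected, and it is not known whether the gene was tested.

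STAU2 lies on the minus strand of chromosome 8, from 73420369 to 73747480 in the same annotation. Its transcripts were called as ending earlier in the knockdown. In 3' end-seq the gene was called shorter, with a change in usage index of -0.113 and an adjusted p of 4.26e-146 in the authors' deposited table. Shorter was the call for 339 of the 2220 genes listed there (15.3%), so STAU2 belongs to the smaller class. The site whose use fell, at 73420371 in the authors' deposited table (hg38), lies 2 nt inside the annotated end of the gene. The site whose use rose, at 73526839 in the authors' deposited table, lies 106468 nt upstream of it.

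The change in STAU2 was small in size beside other shortened genes and spanned a long stretch of the gene. By the size of the index change it ranked 314 of the 339 shorter genes in the authors' deposited table, where the median was -0.197 and the range -0.615 to -0.10. The smallest change listed in either direction was 0.10 in size, so STAU2 stands close to the limit of the list. By adjusted p it ranked 32 of 339 in the authors' deposited table, where 150 of the 2220 genes listed had a value of 0. Whether this rank follows read depth was not tested. The distance separating its falling and rising sites ranked 44 of 339, against a median of 9829 nt over the shorter genes and 2555 nt over the longer ones. The sources do not state the scale of the index. For 147 of the 199 cryptic sites that were also rising sites, the size of the index change, expressed in percent, lay within 1 point of the difference in site usage, and for STAU2 the gap was 0.361 points.

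**Figure D1:**
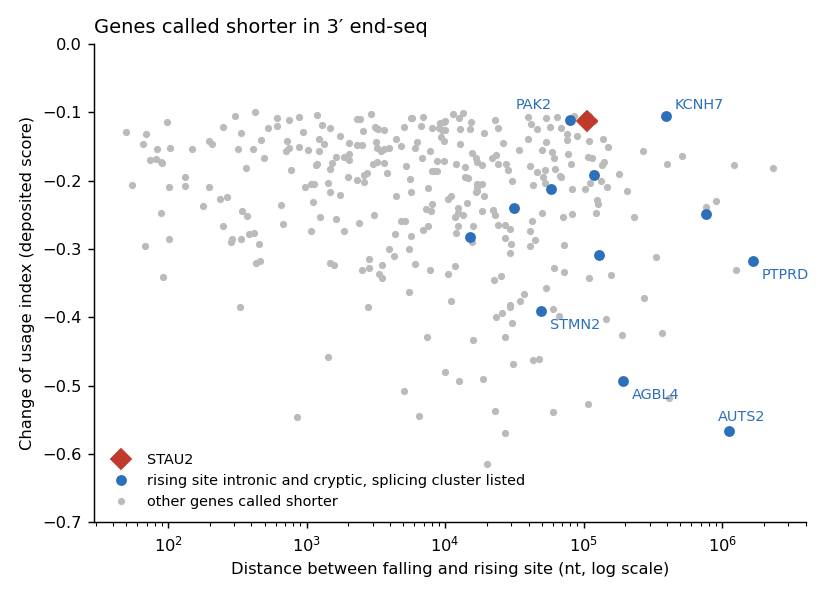
Change of the deposited usage index (vertical axis) against the distance from the falling to the rising site (horizontal, log scale) for the 339 genes called shorter in 3' end-seq, 1 point per gene. STAU2 (red diamond) lies at -0.113 and 106468 nt, near the upper edge of the cloud and toward its right; blue points are the 12 other genes whose rising site is an intronic cryptic site and which have a listed splicing cluster.

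STAU2 had 2 cryptic polyadenylation sites, the term the authors' table uses for sites little used in control neurons, and both were intronic and marked as premature. At 73526839, the rising site of the pair, usage was 14.8% in the knockdown and 3.10% in the control in the authors' deposited table. At 73535733, usage was 15.5% in the knockdown and 3.92% in the control in the authors' deposited table. The values at the sites were close to each other in both groups, which no test compared. The difference between knockdown and control was 11.7 points at the first site and 11.5 points at the second. The ratio of knockdown to control usage was 4.77 and 3.95. The table gives no p-value and 1 value per group, so these differences carry no test. Every site it lists was at 5.99% or less in the control and differed by at least 10.03 points. By difference the STAU2 sites ranked 109 and 112 of the 129 intronic sites, so both stand close to that lower limit. A rise of at least that size was shared by every listed site, so the rise and the closeness of the 2 differences set nothing apart. Priming at internal A-rich stretches, which this assay can read as a polyadenylation site, was not tested at either site.

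The sites lie 8894 nt apart. About 67.5% of the annotated gene lies upstream of the rising site and 64.7% upstream of the other. The authors' deposited pair for the gene names the first of these sites and not the second. Whether use of the second enters the index is not stated. The denominator of the usage values is not stated, and the usages of the 2 sites were therefore not added.

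Among cryptic sites of other genes, those of STAU2 were toward the lower end in knockdown usage. Of the 457 distinct sites listed, 129 were intronic (28.2%). Knockdown usage of the intronic sites ran from 10.9% to 82.6% with a median of 20% in the authors' deposited table, and the STAU2 sites ranked 101 and 109 of 129. Control usage of intronic sites ran from 0.0207% to 5.95% with a median of 3.41% in the authors' deposited table, and the STAU2 sites ranked 51 and 73. Having a pair of intronic cryptic sites was seen in 6 of the 110 named genes with any. The others, named after their values were seen, were BBS9, DLG2, HS3ST3B1, NR4A2 and TMEM101. Their 10 sites reached between 13.2% and 36.2% in the knockdown in the authors' deposited table. Of the 6 genes, STAU2, chosen with its clusters known, was the one with a listed splicing cluster. A listed cluster was found in 18.1% of all genes listed from 3' end-seq, so this sets nothing apart.

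**Figure D2:**
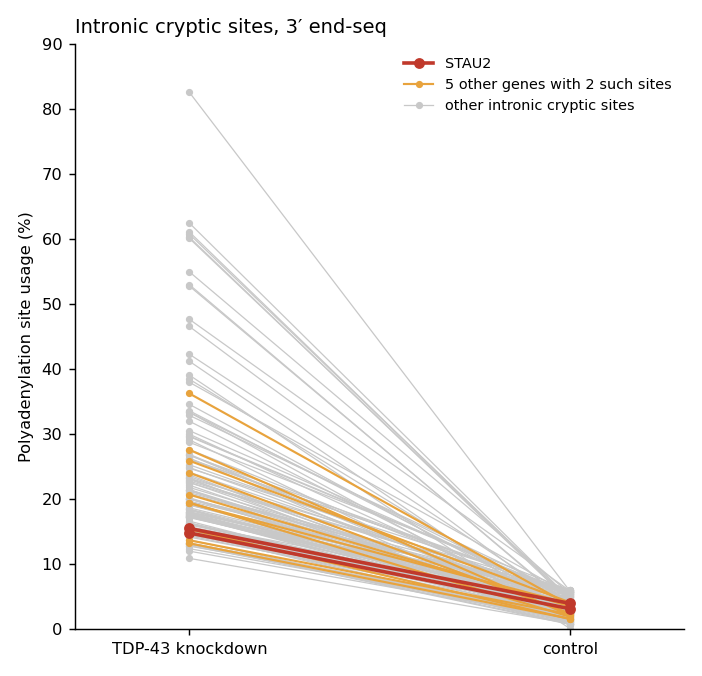
Usage of each of the 129 intronic cryptic polyadenylation sites (vertical axis, percent) in TDP-43 knockdown (left) and control neurons (right), 1 line per site and 1 pooled value per group. The 2 STAU2 lines (red) nearly coincide, at 14.8% and 15.5% in the knockdown against 3.10% and 3.92% in the control.

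Splicing of STAU2 changed around the same sites. The table of RNA-seq splicing groups introns that share a splice site into clusters and gives each intron's change in its share of the cluster. A cluster of 5 introns near the end of STAU2, from 73422702 to 73552012 on chromosome 8, had an adjusted p of 0.00435 in the authors' deposited table. The intron that covers this whole span, from the donor at 73552012 to the acceptor at 73422702, changed by -20 points in the authors' deposited table. That acceptor begins the exon holding the annotated gene end, 2331 nt upstream of the falling polyadenylation site. A change of 20 points or more in some intron occurred in 303 of the 2994 clusters listed (10.1%). The median over clusters was 6.4 points, and this cluster ranked 300.

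Of the introns with the opposite sign, those with the larger changes lead to an annotated exon in the middle of the long one. The annotated intron from the same donor to the acceptor at 73527804 changed by 13.3 points in the authors' deposited table. The annotated intron that leaves this middle exon, from the donor at 73527691 to the last acceptor, changed by 0.4 points in the authors' deposited table. Junctions into the exon thus changed by 16.9 points in sum and the junction out of it by 0.4 points. Shares within a cluster trade off by construction, so these values and the -20 points of the long intron are not independent. The span between the introns at this exon is 113 nt as listed. The rising polyadenylation site lies 852 nt downstream of the exon's donor and 965 nt downstream of its acceptor. It is inside the intron whose share barely moved and also inside the long intron that changed by -20 points.

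A further exon, not in the authors' annotation, lay upstream of the middle one. The junction into it, from 73552012 to 73542958, uses an unannotated 3' splice site and changed by 2.7 points in the authors' deposited table. The junction out of it, from 73542902 to 73527804, uses an unannotated 5' splice site and changed by 3.6 points in the authors' deposited table. The span between them is 56 nt as listed. The second cryptic polyadenylation site, at 73535733, lies 7169 nt downstream of the donor of this exon and 7929 nt upstream of the acceptor of the middle exon. It is therefore inside the introns that join either of the upstream donors to the middle exon, and inside the long intron that skips that exon. No listed junction ends within 1000 nt upstream of this site. An unannotated junction is common in the table, being present in 2658 of the 2994 clusters listed (88.8%).

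**Figure D3:**
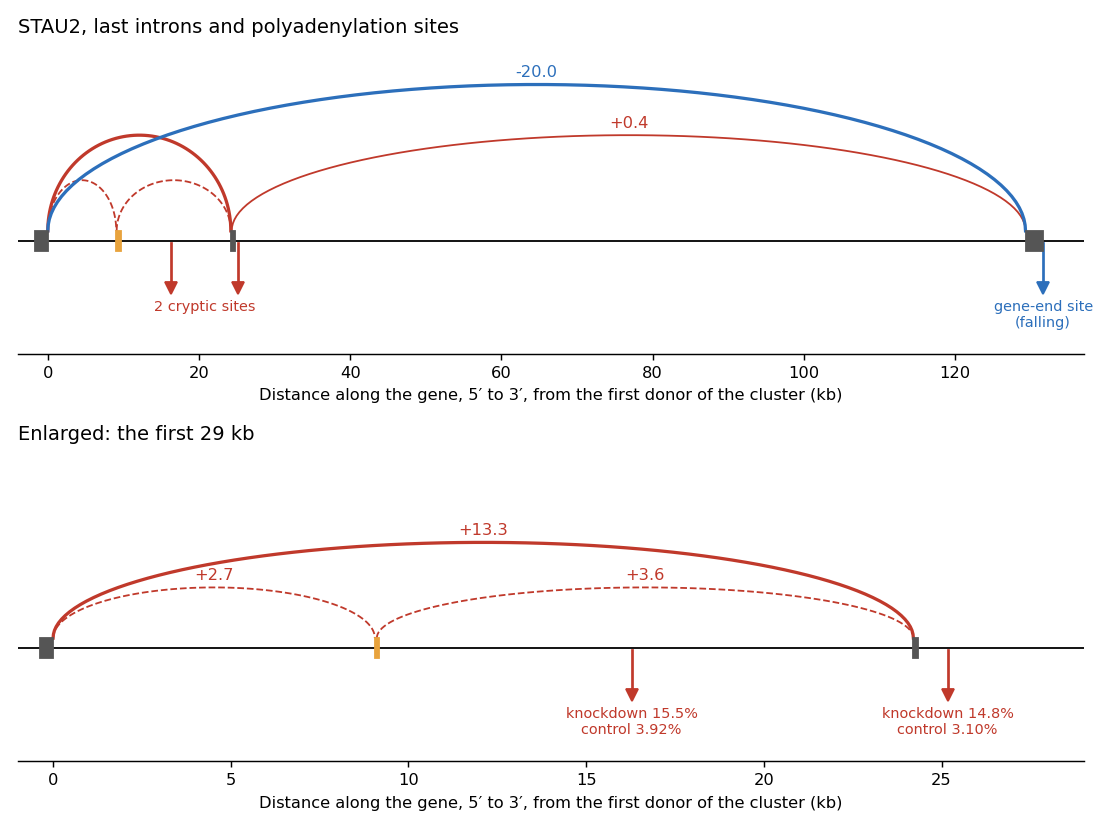
Map of the STAU2 3' cluster, with distance along the gene in kb on the horizontal axis from the donor at the left. Arcs are introns labelled with their change of share in percentage points (red positive, blue negative, dashed where a splice site is unannotated), grey and orange boxes are annotated and unannotated exon ends drawn no narrower than a visible minimum (the width of the leftmost box is arbitrary), and arrowheads are polyadenylation sites. The long intron at -20 points runs to the exon with the falling site, and the 2 cryptic sites lie on either side of the middle exon.

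A listed junction just upstream of an intronic cryptic site was rare. Of the 129 intronic cryptic sites, 4 (3.10%) had a listed intron ending within 1000 nt upstream on the same strand: those of STMN2, STAU2, ZMYND11 and CNR1. The largest change among such introns was 44.9 points in STMN2, 13.3 in STAU2, 6.6 in ZMYND11 and -0.8 in CNR1 in the authors' deposited table. The STAU2 distance of 965 nt is just inside the window of 1000 nt. Within 500 nt only the STMN2 site was found, and within 2000 nt a site in ARHGAP22 at 11.5 points was added.

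The second STAU2 cluster, near the start of the gene, showed small changes spread over many introns. It holds 21 introns from 73617451 to 73805651 on chromosome 8 and had an adjusted p of 5.25e-08 in the authors' deposited table, ranking 74 of 2994. By the size of its largest change, -3.5 points, it ranked 2148. That largest change is not in the annotated STAU2 gene. The intron, from 73794115 to 73805651, lies inside UBE2W, the neighbouring gene on the upstream side, which encodes a ubiquitin-conjugating enzyme and runs from 73780096 to 73878862 in RefSeq. Another intron, from 73776527 to 73805651, joins UBE2W to the space between the genes at -0.1 points, and the intron from 73739868 to 73805651, joins UBE2W to STAU2 at 0 points, both in the authors' deposited table.

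The other 18 introns of that cluster lie within STAU2. Of these, 10 had a positive change, 6 a negative one and 2 none, between -0.3 and 1.4 points in the authors' deposited table. The highest value, 1.4 points, belonged to the annotated intron from 73688813 to 73738284, and the next, 1.1 points, to the pairing of annotated splice sites at 73739868 and 73747387, which the authors' deposited table calls new. Changes within a cluster sum to about 0 by construction, so these values and the -3.5 points in UBE2W are not independent. The adjusted p belongs to the whole cluster, UBE2W included, and no p for the introns within STAU2 is given. UBE2W also had a cryptic site, in its 3'UTR at 73786223, with a usage of 24.3% in the knockdown and 5.42% in the control in the authors' deposited table. The part of UBE2W in the cluster's p was not tested.

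**Figure D4:**
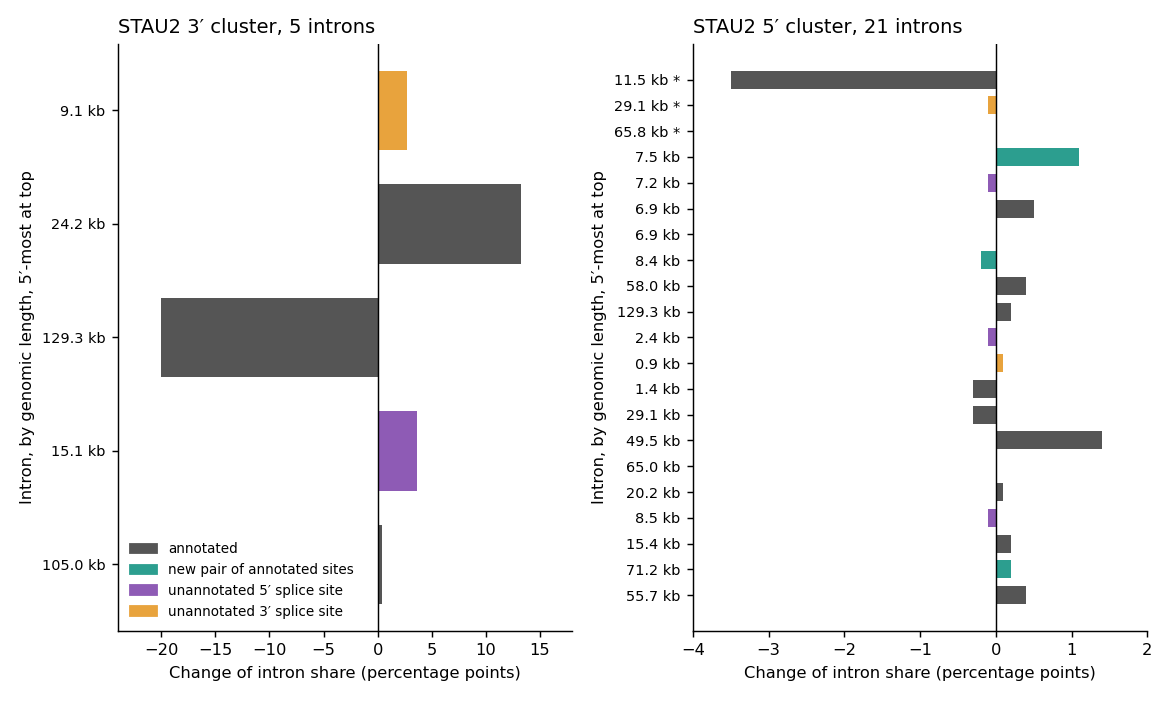
Change of intron share in percentage points (horizontal axis, a different scale in each panel) for the 5 introns of the STAU2 3' cluster (left) and the 21 of its 5' cluster (right), each bar 1 intron named by its genomic length and ordered from the 5' end at the top, with asterisks for the 3 introns that reach outside STAU2. The left panel has bars at -20 and 13.3 points; in the right panel the introns within STAU2 stay between -0.3 and 1.4 points.

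In the RNA-seq polyadenylation table, built from the other assay, STAU2 was not among the 841 genes listed. Whether that table can hold an intronic site is not known, so the absence does not show a lack of change. The shift to the intronic site in 3' end-seq was therefore accompanied by a listed splicing change in RNA-seq and by no listed RNA-seq polyadenylation change. This combination was counted in other genes after the STAU2 values were seen. Of the 339 shorter genes, 44 had an intronic cryptic site as the rising site, and 13 of these (29.5%), STAU2 included, also had a listed splicing cluster. A listed cluster was found in 64 of all 339 shorter genes (18.9%) and in 402 of all 2220 genes (18.1%). These shares were not tested against each other. Clusters were matched by symbol, so the 127 of the 2220 without a symbol could not match. Of the 13, 0 were listed from RNA-seq polyadenylation, a table that held 14 of the 339 shorter genes (4.13%) by symbol, so a count of 0 among 13 sets nothing apart.

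The 12 others included STMN2 at -0.391, AUTS2 at -0.567 and AGBL4 at -0.493, as changes of the usage index in the authors' deposited table. STMN2 encodes the microtubule regulator stathmin-2 and AGBL4 a carboxypeptidase that acts on tubulin. Knockdown and control usage at the rising site were 39.0% and 0.0207% in STMN2, and 60.7% and 4.47% in AUTS2, in the authors' deposited table. The genes with changes nearest that of STAU2 were PAK2, a p21-activated kinase gene, at -0.111 and KCNH7, a voltage-gated potassium channel gene, at -0.106 in the authors' deposited table. Knockdown and control usage were 13.0% and 1.65% at the PAK2 site and 17.5% and 5.09% at the KCNH7 site in the authors' deposited table. STAU2, chosen with its sites known, was the one of the 13 with a pair of intronic cryptic sites. Among all named genes with any such site, 6 of 110 had a pair, so this sets nothing apart.

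Other proteins with double-stranded RNA-binding domains were also listed. Of 18 genes in that list, which includes the Staufen pair, 3 were in the 3' end-seq table. DROSHA, the nuclease that starts microRNA processing, was called longer at 0.139, and PRKRA, a partner of Dicer and activator of the kinase PKR, at 0.198, both in the authors' deposited table, while STAU2 was shorter. Longer was the call for 84.7% of all genes listed. Cryptic sites were listed in DROSHA and ADARB2. Usage in DROSHA was 19.7% in the knockdown and 5.92% in the control in the authors' deposited table. In ADARB2 it was 18.6% in the knockdown and 4.52% in the control in the authors' deposited table. The ADARB2 site was intronic, like those of STAU2, and the DROSHA site was not. Splicing clusters were listed in 6 of the 18 genes. They included STAU2, DROSHA, DICER1, STRBP and ADARB1, an RNA editing enzyme, whose largest change was 14.3 points in the authors' deposited table. None of the 18 was listed from RNA-seq polyadenylation.

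Among 38 factors of neuronal RNA granules and transport, 3 were listed from 3' end-seq and all 3 were longer, the call for 84.7% of all genes listed. They were CYFIP1, a partner of the fragile X protein, at 0.258, PURA, a nucleic acid-binding protein of dendritic granules, at 0.251, and ELAVL4, a neuronal protein that binds AU-rich RNA, at 0.154 in the authors' deposited table. PURA had an intronic cryptic site as well, with 14.8% usage in the knockdown and 1.07% in the control in the authors' deposited table. From RNA-seq polyadenylation 5 of the 38 were listed, 4 distal and 1 proximal, where 95% of all genes listed were distal. The proximal one was KIF5C, a kinesin heavy chain that moves such granules, at -0.180 in the authors' deposited table. PABPC1, a poly(A)-binding protein, led the distal ones at 1.12 in the authors' deposited table. Splicing clusters were listed in 18 of the 38. The largest changes among those with the smallest p were 20.4 points in PUM2, a translational repressor, 16.9 in ELAVL4 and 15.7 in IGF2BP1, a zipcode-binding protein, in the authors' deposited table.

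Of 19 factors of Staufen-mediated and nonsense-mediated decay, 4 were listed from 3' end-seq and all 4 were longer, the call for 84.7% of all genes listed. They were DCP1A, a decapping factor, at 0.299, UPF3A, a nonsense-mediated decay factor, at 0.275, RBM8A, a core exon junction complex protein, at 0.228 and PNRC2, which links UPF1 to decapping, at 0.162 in the authors' deposited table. UPF1 itself, the Staufen partner, was not listed in any of the tables. EIF4A3, the helicase of the exon junction complex, was distal at 1.46 and SMG9 distal at 0.964 in the authors' deposited table of RNA-seq polyadenylation. Distal was the call for 95% of all genes listed there. Splicing clusters were listed in 5 of the 19, with largest changes of 8.1 points in SMG5 and 5.9 points in DCP1A in the authors' deposited table.

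Of 26 mRNAs known to be carried into dendrites, 3 were listed from 3' end-seq, all longer, the call for 84.7% of all genes listed. They were PPP3CA, a calcineurin subunit, at 0.234 and the postsynaptic scaffold genes SHANK2 at 0.196 and SHANK3 at 0.159 in the authors' deposited table. From RNA-seq polyadenylation 4 were listed, where 95% of all genes listed were distal. In the authors' deposited table DLG4 at 1.85, EEF1A1 at 0.965 and SHANK2 at 0.425 were called distal and KIF5C proximal. Splicing clusters were listed in 11 of the 26. SHANK1 had the largest changes among those with the smallest p, 39.9 and 37.0 points in 2 clusters, and MAP2, the dendritic microtubule-associated protein, had 3.0 points in its cluster with the smallest p in the authors' deposited table. In none of these lists can the count be set against the genes that were tested, because the tables hold changed items only.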

How the data were processed

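Per the labels' protocols, the RNA-seq kit was stranded and started from total RNA, and 3' end-seq used QuantSeq REV. QuantSeq REV primes on poly(A), so internal A-rich stretches can look like polyadenylation sites. Tools in the submitters' processing notes are STAR, SAMtools, Salmon, DESeq2 and fastp, with the build hg38. The deposited splicing tables are named for LeafCutter. Its version and settings are not stated, and for the other tables the caller is not given in the sources used here.

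Changes of usage index and of intron share (3 decimals) are scores the authors deposited. The p-values are adjusted p-values deposited by the authors, per gene or cluster, and listed items reach up to 0.05. Site usage was deposited as a fraction, 1 value for each group, and is printed as a percent. Introns per cluster are a deposited whole-number count.

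Here entries were matched by symbol, ranked and placed in RefSeq genes (GRCh38.p14). No test was added, and distances follow coordinates as listed. The cryptic table repeated 2 lines, counted once. Gene-level values were left out, since the gene table's 6 per-sample columns carry numbers that match no library's labels, and groups were not inferred from TARDBP; the planned expression comparison was not run. The distance function was tested on simulated data. Members, lists and the rule for named genes (the Staufen pair, up to 6 members per list with the smallest p, STMN2) were chosen with earlier results of these data known. Python 3.11.15, numpy 2.4.6, pandas 2.3.3 and matplotlib 3.10.9 were used.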

Additional observations from a re-analysis of the deposited data

How the results depend on the processing

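No paired analysis was possible because the tables hold the authors' comparisons with no value per library, so leaving out a library was not possible either; the alternatives on expression were not run. The STAU2 gene pair and both clusters passed an adjusted p of at most 0.01. Matching by older symbol or by position gave the same number of STAU2 entries, except that position found 24 of its 26 introns (23 with both ends in the gene and 1 with its upstream end in UBE2W), and gave 0 for STAU1. Requiring an index change of at least 0.2 left 1037 longer and 168 shorter genes and would drop STAU2. An adjusted p of at most 0.01 left 25 proximal RNA-seq genes of 42 and 1449 splicing clusters. An intron share change of at least 10 points left 861 positive and 850 negative introns. A knockdown usage of at least 20% left 207 cryptic sites and would drop both of STAU2. Under alternatives chosen after seeing the data, a window of 500 nt left 1 intronic cryptic site with a junction upstream, in STMN2, because the STAU2 distance is longer. Within the annotated gene, the largest change of the 5' cluster of STAU2 was 1.4 points instead of -3.5, because the intron that gave -3.5 lies in UBE2W.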
